A study of Mus musculus with 32 samples.

Results

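The genes described here include those of the machinery that releases neurotransmitter from synaptic vesicles, and the neurexins and neuroligins that hold synapses together. They were chosen by symbol: those beginning with Syt, Stx, Vamp, Rims, Cplx, Rab3, Sv2, Nrxn or Nlgn, with Syn1, Syn2, Syn3, Syp, Synpr, Snap25, the Unc13 genes and Sybu. The array names 85 such genes, and 67 of them had a probe detected on at least 4 of the 32 arrays, out of 10412 named genes detected to that extent. The other 18, among them Snap25, Synpr, Syt2, Syt7 and Cplx3, did not reach that mark. The spelling rule also took in 10 detected genes from Rab31 to Rab39b. They act in Golgi, endosomal and other traffic and are not Rab3 genes, so they are described apart. Some Stx and Vamp genes, such as Vamp4, also act in such traffic. Counts over all members include these and the Rab31 to Rab39b genes, so they are not counts of release genes alone.

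Release begins when a vesicle carrying the SNARE synaptobrevin (Vamp1 or Vamp2) is tethered and primed at the plasma membrane. There it meets the SNARE syntaxin (Stx1a among the members). Munc13 (Unc13), RIM (Rims) and Rab3 act before fusion, complexin (Cplx) clamps and assists the assembled SNAREs, and synaptotagmins (Syt) with calcium-binding C2 domains trigger fusion when calcium enters. In the olfactory bulb, mitral and tufted cells release glutamate onto granule and periglomerular interneurons, and these interneurons release GABA back from their dendrites.

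Olfactory bulbs of mice of a mixed C57/BL6, 129/Ola and CD1 background were profiled on 32 Illumina bead arrays, 8 in each of 4 groups. At embryonic day E18.5 the mutants carried a GFP and a delta allele of Tshz1, a zinc finger transcription factor gene, and the controls a GFP and a wild-type allele, with no Nestin-Cre in either. At postnatal day P30 the Tshz1 genotype was flox/GFP in the mutants and flox/+ in the controls, and both carried Nestin-Cre, in which Cre recombinase is driven by sequence of Nestin, a gene of neural progenitors. A Tshz1 allele was therefore altered in every control as well, and the mutants of the 2 ages differ in design. The P30 labels are the ones the submitters exchanged between mutant and control after deposit, and no probe for Tshz1 was used here to check them, so every P30 direction rests on the corrected labels. Each age filled 2 chips, as the array identifiers in the labels give them, with 4 mutants and 4 controls on each chip.

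Values below are log2 of background-corrected, quantile-normalized intensity, given as mean ± SD over 8 arrays, and a change is mutant minus control with the standard error of limma's fit. A gene passed when limma's p-value, Benjamini-Hochberg adjusted over all genes, was under 0.05. A detected probe is one with a detection p under 0.05. The share of probes detected was 52.6% ± 1.7 in E18.5 mutants, 51.7% ± 1.8 in E18.5 controls, 45.7% ± 3.7 in P30 mutants and 45.6% ± 2.1 in P30 controls (SD, n = 8 each). Intensities of different probes cannot be ranked against each other, so levels are compared only between groups. In bulk tissue, fewer cells of a type and less RNA per cell cannot be told apart.

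At E18.5, Sybu was lower in the mutants and was the 1 member of 65 measured to pass, against 63 of 10852 genes (0.581%). In the lower direction 0.507% of all genes passed, and in the higher direction 0.0737%, where no member did. Sybu encodes syntabulin, an adaptor that links the motor kinesin-1 to syntaxin-bearing cargo moving along axons. Its level was 12.07 ± 0.09 in E18.5 mutants (lowest 11.94, median 12.07, highest 12.20) and 12.84 ± 0.16 in E18.5 controls (lowest 12.50, median 12.86, highest 13.01). The groups did not overlap. The change was -0.77 (SE 0.09), 1.70-fold lower, with limma's adjusted p = 8.64e-05. Within the chips it was -0.78 on the first and -0.75 on the second. On the second chip alone, with 4 arrays a group, the adjusted p was 0.416. A second Sybu probe was also lower in E18.5 mutants, with a change of -0.72 (SE 0.11), and passed when each probe was tested on its own (limma's adjusted p = 0.00183).

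The next members in order of p did not pass. Syn1, which encodes synapsin I and ties vesicles to the cytoskeleton, had 12.94 ± 0.19 in E18.5 mutants (lowest 12.74, median 12.87, highest 13.19) and 13.36 ± 0.37 in E18.5 controls (lowest 12.97, median 13.32, highest 13.96). All 8 mutants lay below the control median, but the ranges overlapped, with a change of -0.43 (SE 0.14; limma's adjusted p = 0.343). A second Syn1 probe gave -0.09 (SE 0.08). Syt5, a synaptotagmin, had a change of -0.26 (SE 0.11; limma's adjusted p = 0.485). Vamp4, a vesicle SNARE of the trans-Golgi and endosomes, had 11.24 ± 0.29 in E18.5 mutants (lowest 10.79, median 11.26, highest 11.64) and 10.82 ± 0.45 in E18.5 controls (lowest 10.11, median 10.78, highest 11.35). Those ranges overlapped as well, and its change was 0.41 (SE 0.18; limma's adjusted p = 0.508).

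None of the core release genes passed at E18.5. Among vesicle proteins, Syp, the vesicle membrane protein synaptophysin, had a change of -0.19 (SE 0.11), and Sv2a, which helps ready vesicles for calcium, had 0.04 (SE 0.09). The change was -0.03 (SE 0.10) for Vamp2, the main neuronal synaptobrevin, 0.13 (SE 0.15) for Stx1a, its plasma membrane partner, and 0.12 (SE 0.12) for Syt1, the main fast calcium sensor. The changes of the 7 measured priming and clamping genes lay between -0.14 and 0.26, and those of the 6 Rab3 genes and partners between -0.11 and 0.20. The neurexins and neuroligins, presynaptic and postsynaptic partners across the cleft, lay between -0.05 and 0.27. The highest was Nrxn3, from a probe that varied widely (SD 1.09 in mutants and 1.25 in controls), with a 95% interval between -0.80 and 1.33. Its other probe had means of 9.27 in E18.5 mutants and 9.19 in E18.5 controls. Over all 65 members, 31 changes were positive and 34 negative, and their median was -0.01, as it was over all genes. The 95% interval of the change lay within 2-fold for 64 members and within 1.5-fold for 55.

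**Figure D1:**
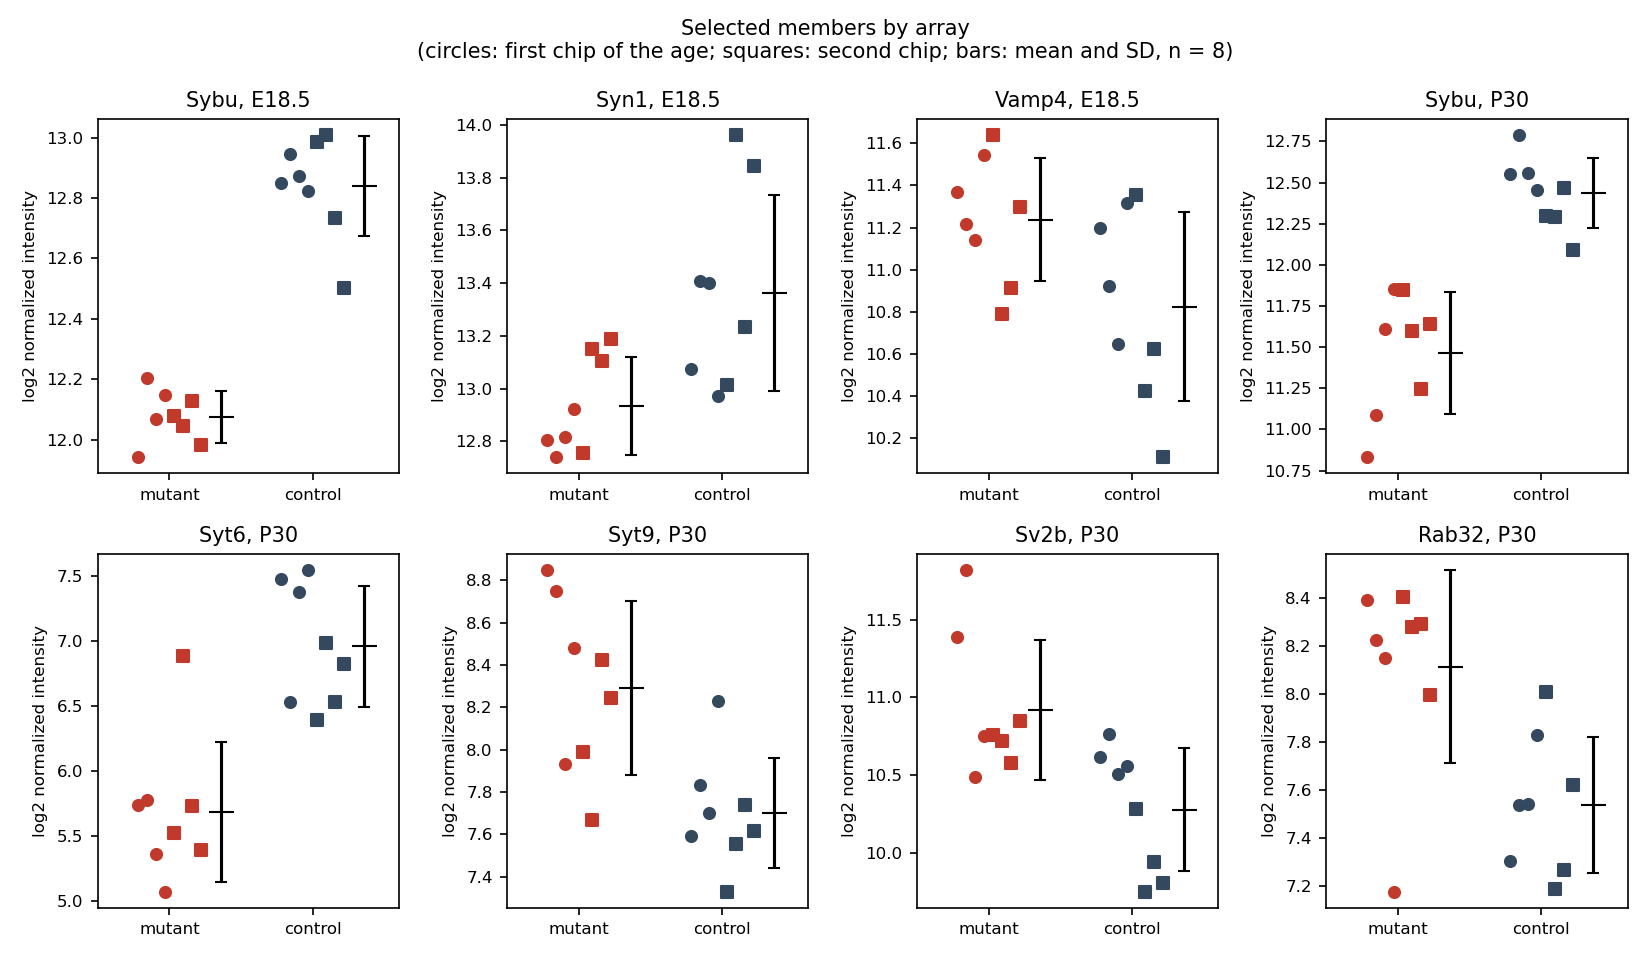
Log2 normalized intensity (vertical axes, each panel its own scale) of selected members on each array, mutants left and controls right, with circles for the first chip of the age and squares for the second and bars for mean and SD. Sybu does not overlap between the groups at either age, Syt6 at P30 overlaps through 1 mutant array, and the other panels overlap.

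At P30, 2 of 63 measured members passed, Sybu and Syt6, both lower in the mutants, against 430 of 9928 genes (4.33%). In the lower direction 2.33% of all genes passed, and 2% in the higher, where no member did. The members' share, 3.17%, lay near that of all genes.

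Sybu was 11.46 ± 0.37 in P30 mutants (lowest 10.83, median 11.60, highest 11.85) and 12.44 ± 0.21 in P30 controls (lowest 12.09, median 12.46, highest 12.79). Again the groups did not overlap. The change was -0.97 (SE 0.17), 1.96-fold lower, with limma's adjusted p = 0.000809. It was -1.24 on the first chip and -0.70 on the second, where the adjusted p for that chip alone was 0.081. The second Sybu probe changed by -0.82 (SE 0.21; limma's adjusted p = 0.0254 with each probe tested on its own). Sybu had thus passed at both ages with both probes.

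Syt6 encodes a synaptotagmin that is best known from the acrosome reaction of sperm and is also made in brain. Its level was 5.68 ± 0.54 in P30 mutants (lowest 5.07, median 5.63, highest 6.88) and 6.96 ± 0.46 in P30 controls (lowest 6.39, median 6.91, highest 7.55). The probe was detected on 2 of 8 mutant arrays and 8 of 8 control arrays, so the mutant level lay near background. All 8 mutants lay below the control median, and 1 mutant array, replicate 6 at 6.88, reached into the control range. The change was -1.28 (SE 0.23), 2.42-fold lower, with limma's adjusted p = 0.00139. It was -1.75 on the first chip and -0.80 on the second, where the adjusted p for that chip alone was 0.225. A second Syt6 probe, detected on 0 mutant and 4 control arrays, had a change of -0.54 (SE 0.18) and did not pass (limma's adjusted p = 0.0961).

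Markers of granule cells, the most numerous interneurons of the bulb, were lower beside Sybu at both ages and beside Syt6 at P30. Of the 5 listed granule markers, 3 were measured (Gng4, Nrgn and Pbx3), while Pcp4 and the listed Synpr were detected on 0 arrays. At E18.5, 2 of the 3 were lower in the mutants (Gng4 -0.71 and Nrgn -0.82), and at P30 all 3 (-1.25, -2.06 and -0.63 in the order above). The summed normalized intensity of the 3 was 2879 to 4071 in E18.5 mutants and 3778 to 5558 in E18.5 controls, and 1386 to 2566 in P30 mutants and 3882 to 6236 in P30 controls. Of the general interneuron list, which lacks only Gad2 (detected on 0 arrays), Gad1 and Slc32a1 were lower in E18.5 mutants among 7 measured, and Meis2 in P30 mutants. Their sum was 30605 to 42709 in E18.5 mutants and 35012 to 46969 in E18.5 controls, and 26682 to 33254 in P30 mutants and 21867 to 40710 in P30 controls. Whether these shifts account for any of the change in Sybu or Syt6 was not tested.

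In the other direction, 4 of 6 measured microglia markers were higher in P30 mutants (C1qa by 1.06, C1qb by 1.06, C1qc by 0.96 and Trem2 by 0.80), with sums of 2252 to 6540 in P30 mutants and 1187 to 2555 in P30 controls. Gfap, an astrocyte filament gene, was higher by 1.48, and was the 1 of 7 astrocyte markers to pass. Of 7 mitral and tufted cell markers, Slc17a7 (by 1.12) and Tbr1 (by 0.95) were higher, with sums of 18778 to 30394 in P30 mutants and 14481 to 21189 in P30 controls. Of 3 measured markers of olfactory ensheathing glia, Npy (by 0.76) and Frzb (by 0.75) were higher. Fabp7, the other, had a negative change and did not pass. Sums of all 3 were 4682 to 7916 in P30 mutants and 2875 to 4569 in P30 controls, which did not overlap. How often sums of other genes do not overlap was not counted, and a sum is weighted towards its brightest probes. Of 4 measured pan-neuronal markers, Rbfox3 was lower in the mutants at E18.5 (-0.74) and at P30 (-1.33). The pan-neuronal sums were 13251 to 17667 in E18.5 mutants and 15506 to 18784 in E18.5 controls, and 15141 to 20721 in P30 mutants and 15407 to 32507 in P30 controls. The part of these markers in any member's change was not tested.

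The 3 members next in order of p at P30 had positive changes, and none passed. Syt9, a fast calcium sensor related to Syt1, had 8.29 ± 0.41 in P30 mutants (lowest 7.67, median 8.33, highest 8.85) and 7.70 ± 0.26 in P30 controls (lowest 7.33, median 7.66, highest 8.23), a change of 0.59 (SE 0.18; limma's adjusted p = 0.0627). Rab32, a Rab of lysosome-related organelles and mitochondria, had 8.12 ± 0.40 in P30 mutants (lowest 7.18, median 8.25, highest 8.40) and 7.54 ± 0.28 in P30 controls (lowest 7.19, median 7.54, highest 8.01), a change of 0.58 (SE 0.18; limma's adjusted p = 0.072). Sv2b, a vesicle glycoprotein of the SV2 family, had 10.92 ± 0.45 in P30 mutants (lowest 10.49, median 10.76, highest 11.82) and 10.28 ± 0.40 in P30 controls (lowest 9.75, median 10.40, highest 10.77), a change of 0.64 (SE 0.20; limma's adjusted p = 0.0808). The ranges of all 3 genes overlapped between the groups. With chip as a block, 5 members passed among 576 genes: Sybu, Syt6 and Nrxn3 lower, and Sv2b (adjusted p = 0.0253) and Syt9 (adjusted p = 0.0297) higher. Syt9 also passed when P30 control replicate 4 (adjusted p = 0.0317) or mutant replicate 6 (0.026) was left out, and Rab32 when control replicate 5 (0.0489) or mutant replicate 4 (0.00898) was.

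Nrxn3, a presynaptic adhesion receptor, had 8.55 ± 0.37 in P30 mutants (lowest 8.15, median 8.45, highest 9.08) and 9.10 ± 0.43 in P30 controls (lowest 8.66, median 8.93, highest 9.74), a change of -0.55 (SE 0.20; limma's adjusted p = 0.123). Its partners did not pass either: the change was 0.37 (SE 0.25) for Nlgn2, a neuroligin of inhibitory synapses, and 0.00 (SE 0.18) for Nlgn1, of excitatory synapses. The second Nrxn3 probe, which represented the gene at E18.5 and varied more (SD 0.99 in mutants and 0.84 in controls), had a change of -0.44 (SE 0.38).

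None of the core release genes passed at P30 either. The changes were -0.20 (SE 0.16) for Syt1, -0.03 (SE 0.25) for Vamp2 and 0.18 (SE 0.18) for Stx1a. They were 0.32 (SE 0.17) for Syp and -0.05 (SE 0.17) for Syn1. The 8 priming and clamping genes lay between -0.40 (Rims3, a short RIM) and 0.37 (Rims1, an active zone scaffold). The 5 Rab3 genes and partners measured lay between -0.46 and 0.08, and the 10 Rab31 to Rab39b genes between -0.21 and 0.58. Of the 63 members, 32 changes were positive and 31 negative, with a median of 0.01, as over all genes. The 95% interval lay within 2-fold for 58 members and within 1.5-fold for 29.

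**Figure D2:**
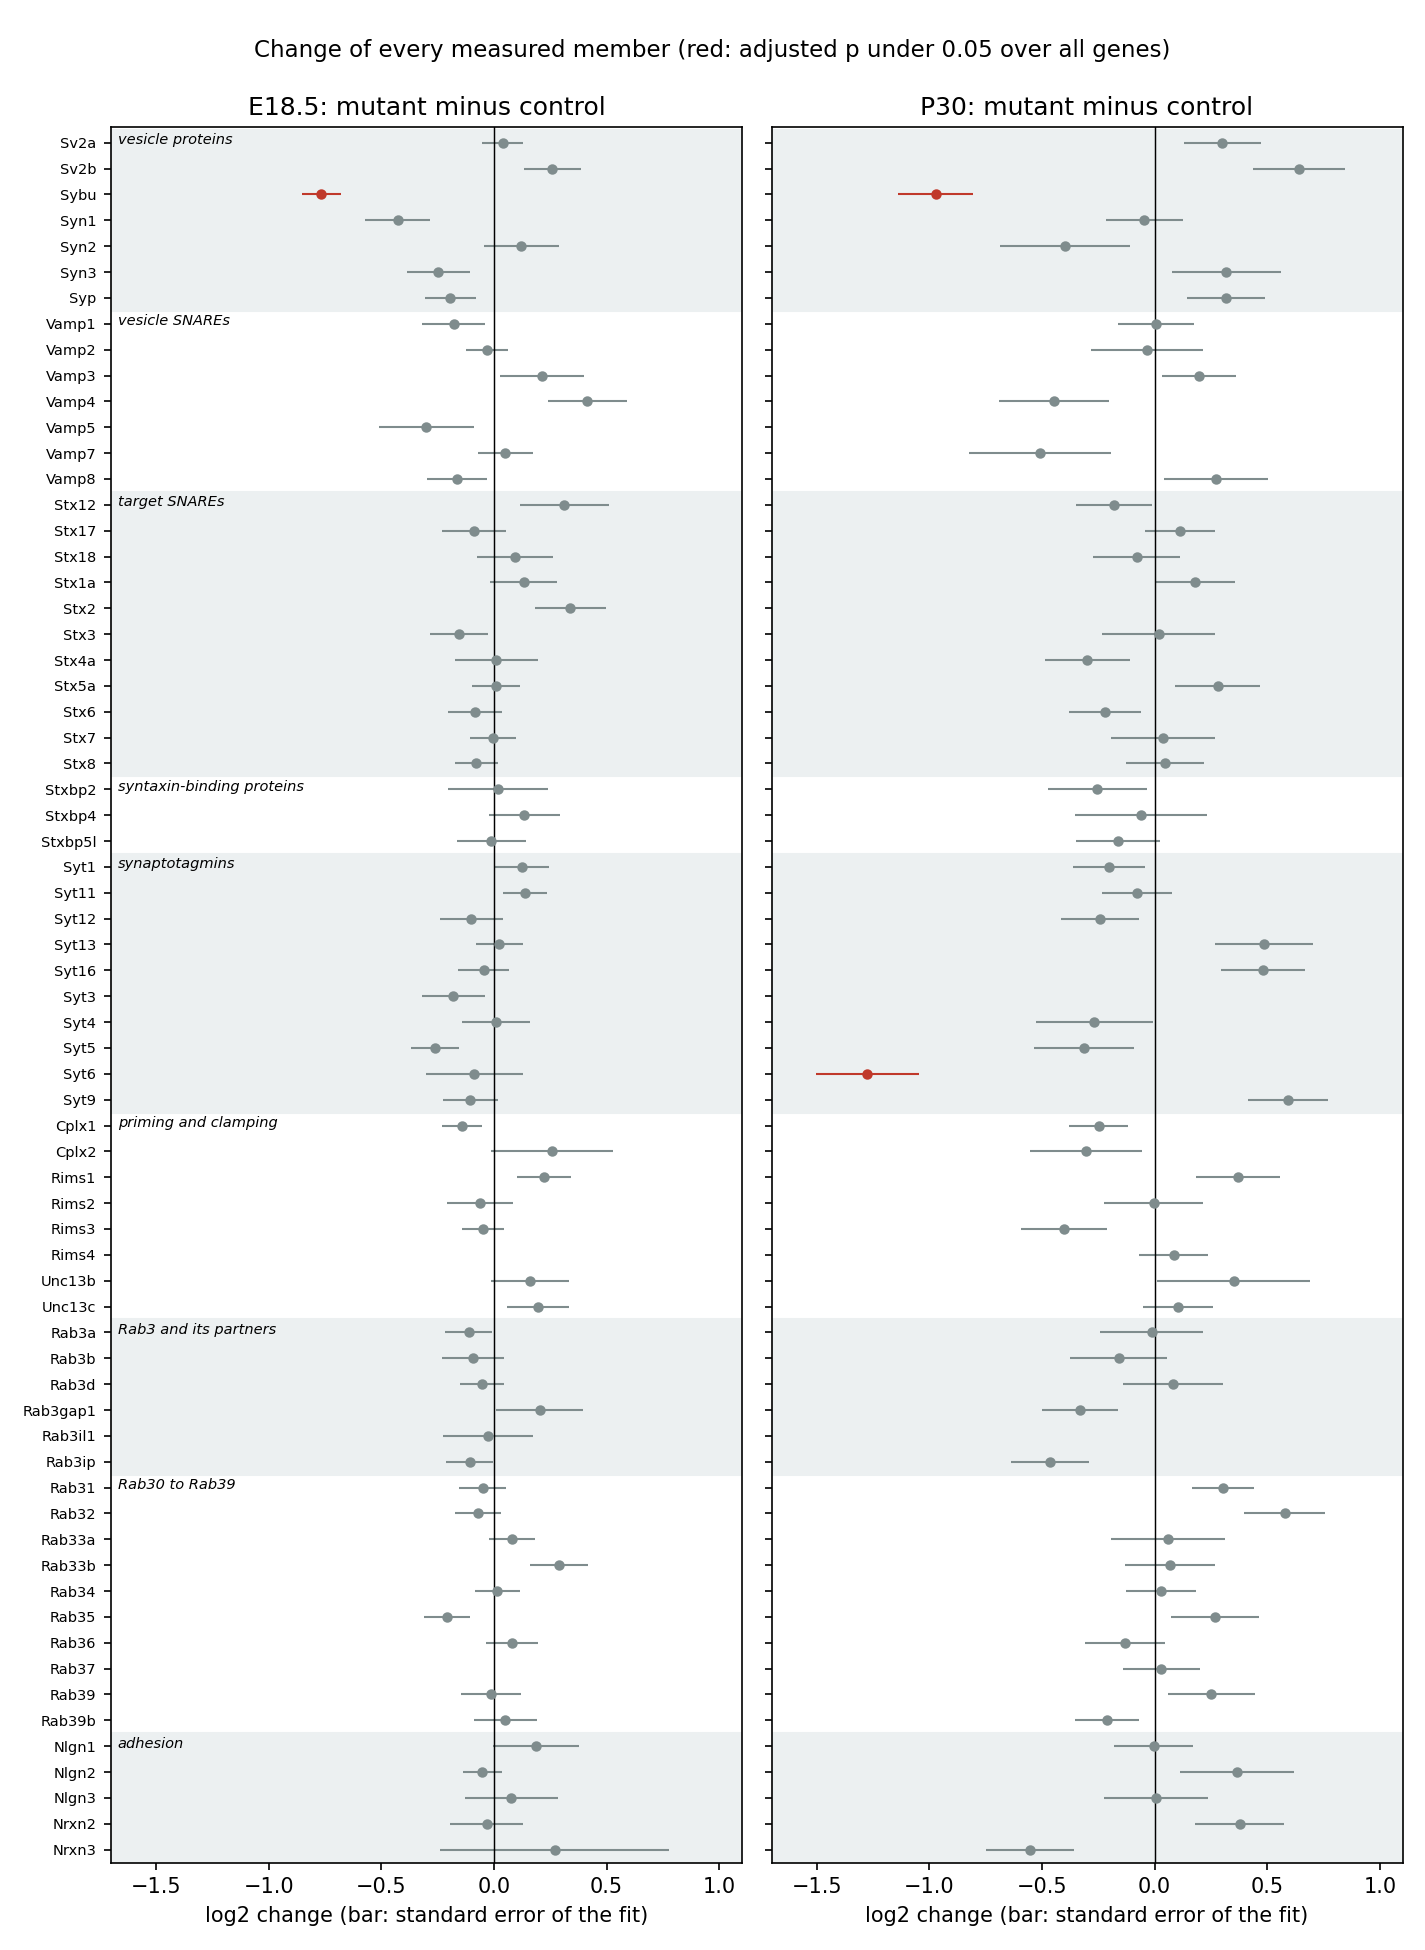
Change (log2, mutant minus control) of every measured member at E18.5 and P30, with the standard error of the fit as bars, grouped by role. The red points are Sybu at both ages and Syt6 at P30, which passed, and the grey ones did not.

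Of 61 members measured at both ages, 27 (44.3%) had the same sign of change at each, against 48.8% of all genes. The probe of a gene can differ between the ages here, as it did for Nrxn3 and Syt6. The difference between the ages was fitted over all 32 arrays. The mutant designs and the chips also differ between the ages, so age cannot be told apart from them. Of 67 members, Syt6 was the 1 to pass, against 209 of 11312 genes (1.85%), of which 0.813% were negative and 1.03% positive differences. On the common scale the probe used there had 5.18 ± 0.15 in E18.5 mutants and 5.46 ± 0.34 in E18.5 controls, near background with 0 and 3 arrays detected. It had 6.02 ± 0.72 in P30 mutants (2 arrays detected) and 7.66 ± 0.54 in P30 controls (8 arrays detected). The mutant effect was lower at P30 than at E18.5 by a difference of -1.36 (SE 0.32; limma's adjusted p = 0.0165). Because that probe was not detected on any E18.5 mutant array, the E18.5 effect in it is bounded by the background. This call was lost under 5 other settings: median scaling over all probes (adjusted p = 0.193) or over the tested probes (0.21), the authors' normalized table (0.0738), each age normalized on its own (0.0881), and the 4 arrays farthest on the first principal component of their age left out (0.0573). At E18.5 the other Syt6 probe represented the gene, with a change of -0.09 (SE 0.22), but it was detected on only 1 mutant and 3 control arrays, so that value lies near background.

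For Sybu the mutant effect did not differ between the ages past the threshold, with a difference of -0.09 (SE 0.18; limma's adjusted p = 0.873) and a 95% interval between -0.45 and 0.27. For Syt9 the difference was 0.71 (SE 0.22; limma's adjusted p = 0.0813) and for Rab32 0.67 (SE 0.21; limma's adjusted p = 0.0989), and neither passed.

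Other presynaptic and adhesion genes, were taken from lists drawn up with earlier results of these data in view. At E18.5, 1 of 21 vesicle transporter and vesicle protein genes passed, Slc32a1, the vesicular GABA transporter, which was lower (-0.48), and 0 genes passed in the other 5 lists. At P30, 6 of 24 priming and active zone genes passed. Of all genes, 4.33% passed at P30 (2% higher and 2.33% lower) and 0.581% at E18.5. Because of how the lists were chosen, their counts cannot be set against those shares as a test. Doc2b, a calcium sensor of spontaneous release, was higher by 1.23, and Rph3a, the Rab3 effector rabphilin, by 1.15. Brsk2, a presynaptic kinase, was higher by 0.86, and Apba2, an adaptor that binds Munc18, by 0.70. Mctp1, a C2 domain protein, was lower (-0.95), as was Doc2g (-0.72).

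Vesicle transporters included Slc17a7, the vesicular glutamate transporter of mitral and tufted cells (higher by 1.12), and Chga, a dense core vesicle protein (higher by 0.80), among 21 measured. Bin1, an amphiphysin of endocytosis, was the 1 of 23 recycling genes to pass, lower (-0.60). Cacna2d1, a calcium channel subunit, was lower (-0.90), the 1 of 6 presynaptic calcium channel genes to pass. Of 31 adhesion partners, Nxph2, of the neurexophilin family, was higher by 1.07, and Lrrtm1, a neurexin-binding postsynaptic protein, by 0.76. Lower were Lrrtm3 (-0.74), Flrt1 (-0.86) and Slitrk5 (-0.81). Gphn, the gephyrin scaffold of inhibitory synapses, was lower (-0.64), the 1 of 8 postsynaptic scaffold genes to pass.

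**Figure D3:**
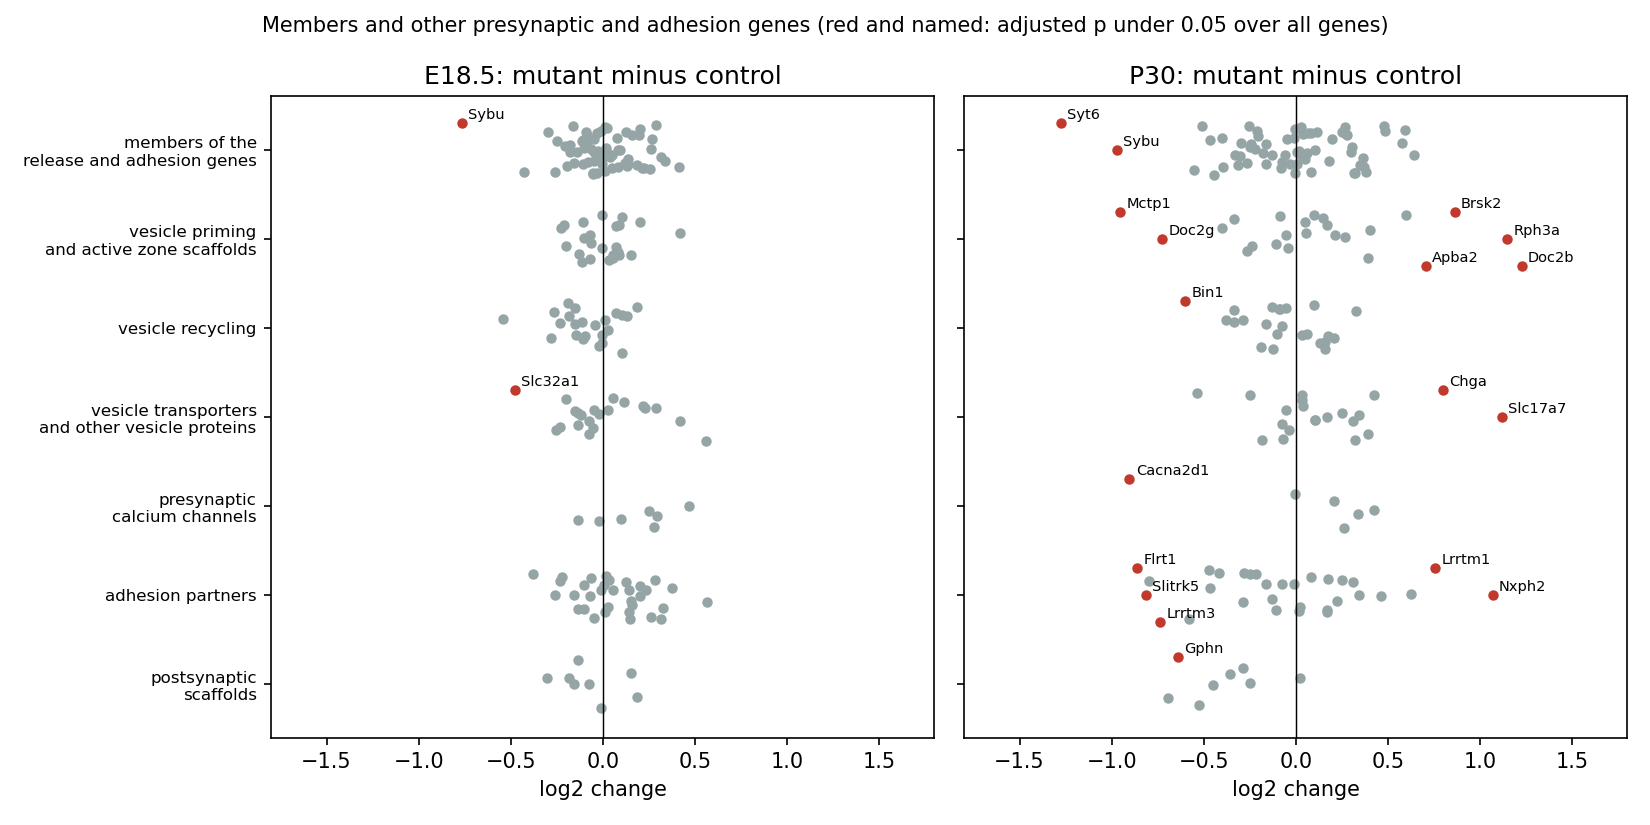
Change (log2, mutant minus control) of the members and of other presynaptic and adhesion genes at E18.5 and P30, 1 point a gene; red and named points passed. At E18.5 Sybu and Slc32a1 are red, and at P30 the red points lie in both directions.

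The effect of age was set between P30 controls and E18.5 controls, where a gene also had to change at least 2-fold. Age here cannot be told apart from chip, since each chip holds 1 age, nor from the alleles the controls carry. Of 67 members, 20 passed (29.9%), against 2698 of 11312 genes (23.9%). Among them 16 were higher at P30 (11.3% of all genes were) and 4 lower (12.6% of all genes). The split depended on the scaling, for the members and for all genes. The median change of all genes was -0.01 with quantile normalization, where 1278 genes were higher and 1420 lower. It was -0.53 with median scaling over all probes, which gave 5 higher and 18 lower members, beside 557 higher and 3444 lower genes. It was 0.25 with median scaling over the tested probes, which gave 23 higher and 2 lower members, beside 2385 and 992 genes. The authors' table, with a median of -0.02, gave 18 higher and 5 lower members, beside 1646 and 1775 genes. The 20 members kept their direction in all 4 scalings, and 7 passed in all 4 (10.4% of members, against 13.6% of all genes): Syt6, Cplx1, Rab3b, Vamp1 and Rab37 higher, and Unc13b and Rab3d lower. Changes of those genes below are given also relative to the median of all genes in each scaling.

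Cplx1, which encodes complexin 1, was higher at P30. It was 15.21 ± 0.09 in P30 controls (lowest 15.08, median 15.24, highest 15.30) and 13.16 ± 0.10 in E18.5 controls (lowest 12.96, median 13.17, highest 13.26). The change was 2.04 (SE 0.10), 4.12-fold higher, with limma's adjusted p = 2.93e-19, and relative to the median it was 2.06 to 2.11. Syt6 was 7.66 ± 0.54 in P30 controls (lowest 6.99, median 7.61, highest 8.33) and 5.46 ± 0.34 in E18.5 controls (lowest 4.97, median 5.53, highest 5.98), detected on 8 P30 control and 3 E18.5 control arrays, so that the E18.5 level lay near background. Its change was 2.20 (SE 0.23), with limma's adjusted p = 2.62e-10, and 2.22 to 2.91 relative to the median. The other Syt6 probe had a change of 0.45 (SE 0.21) and did not pass. The same P30 control arrays entered the P30 mutant comparison and the difference between the ages, so the Syt6 calls are not independent.

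Rab3b, a Rab3 of regulated secretion, was 10.62 ± 0.33 in P30 controls (lowest 10.21, median 10.59, highest 11.16) and 8.66 ± 0.29 in E18.5 controls (lowest 8.20, median 8.68, highest 9.02). The change was 1.96 (SE 0.18; limma's adjusted p = 1.37e-11), and 1.74 to 2.02 relative to the median. Vamp1, a synaptobrevin alongside Vamp2, was 7.92 ± 0.34 in P30 controls (lowest 7.47, median 7.82, highest 8.49) and 6.22 ± 0.27 in E18.5 controls (lowest 5.75, median 6.22, highest 6.58). Its change was 1.70 (SE 0.15; limma's adjusted p = 9.48e-12), and 1.70 to 1.98 relative to the median. None of these 4, chosen for their large changes, overlapped between the groups, and the share of all genes without overlap was not counted. Rab37, a Rab of secretory granules, had a change of 1.14 (SE 0.17), and 1.15 to 1.84 relative to the median, but it was detected on only 6 of 8 P30 control and 1 of 8 E18.5 control arrays, so the size of this change is limited by background.

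Among the falls, Unc13b, which encodes a Munc13 priming factor, was 8.96 ± 0.66 in P30 controls (lowest 8.08, median 9.05, highest 10.05) and 10.62 ± 0.34 in E18.5 controls (lowest 10.23, median 10.55, highest 11.15). The groups did not overlap, with a change of -1.66 (SE 0.30; limma's adjusted p = 1.08e-05) and -1.64 to -1.90 relative to the median. Rab3d, the Rab3 of secretory granules, was 9.07 ± 0.36 in P30 controls (lowest 8.49, median 9.01, highest 9.72) and 10.33 ± 0.19 in E18.5 controls (lowest 10.07, median 10.30, highest 10.66). Its change was -1.26 (SE 0.18; limma's adjusted p = 2.47e-07), and -1.25 to -1.55 relative to the median. The other members lower at P30 were near background: Rab3il1, an activator of Rab3a, was detected on 0 of 8 P30 control arrays and 8 of 8 E18.5 control arrays, at least 1.25-fold lower, with measured means of 5.13 and 6.45 (limma's adjusted p = 1.24e-08). Vamp5 was detected on 0 P30 control arrays and 6 E18.5 control arrays, so no fold is given, and its call was lost without E18.5 control replicate 3, 6 or 8 or P30 control replicate 5.

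The other members higher at P30 in the quantile scaling fell below the 2-fold condition under median scaling over all probes. They were Vamp4 (1.31), Rims2, which tethers vesicles at the active zone (1.26), Nrxn3 (1.22), Sv2b (1.21) and Rab3gap1, a subunit of the Rab3 GTPase-activating complex (1.17). The rise of Nrxn3 rested on 1 probe: the other had a change of -0.11 (SE 0.48). Also past the threshold were Cplx2 (1.09), Nlgn1 (1.07), Stxbp5l (1.07), Syt11 (1.06), Stx4a (1.03) and Syt13 (1.00). Sybu, lower in the mutants at both ages, was 0.64 (SE 0.13) higher in P30 controls, short of 2-fold, and Syt1 had a change of 0.95. With age in the controls, 5 of 5 measured oligodendrocyte markers and 4 of 7 astrocyte markers were higher, and 3 of 4 neuroblast markers were lower. Also higher were 3 of 4 pan-neuronal, 3 of 6 microglia, 1 of 7 interneuron and 1 of 3 granule cell markers, and lower were 3 of 7 mitral and tufted cell, 2 of 2 cortical neuron and 2 of 4 endothelial markers. Of 4 olfactory sensory neuron axon markers 1 was higher and 1 lower, and of 3 ensheathing glia markers 0 passed with limma. Their part in the members' changes was not tested.

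**Figure D4:**
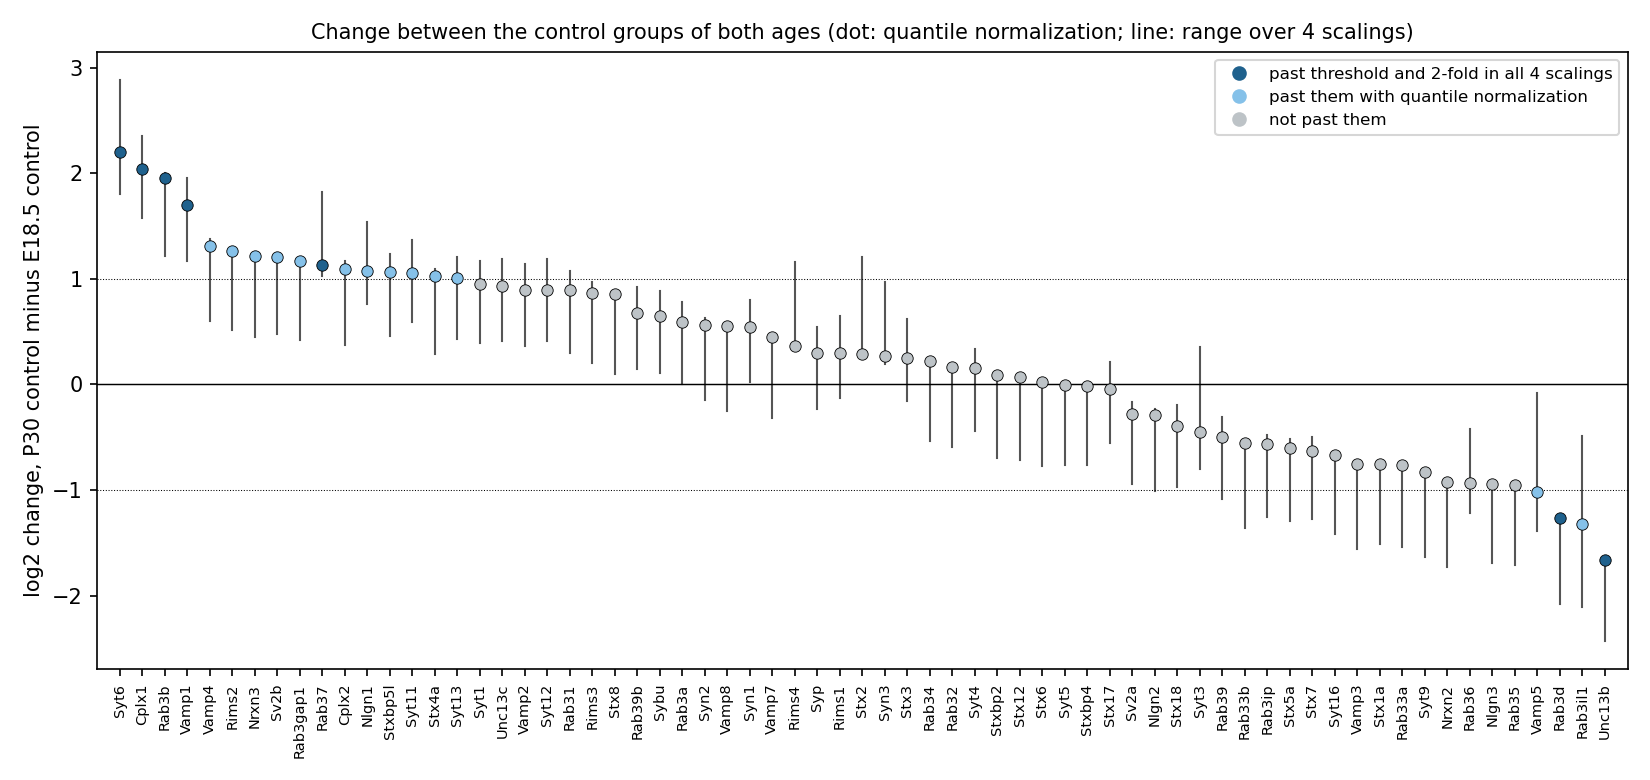
Log2 change of each member, P30 control minus E18.5 control, ordered by size, with a dot for quantile normalization and a vertical line for the range over 4 scalings. The 7 dark dots passed in all 4 scalings, the light blue dots passed with quantile normalization, and dotted lines mark 2-fold.

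The promoter sequence of 3 of these genes is shown. Syt6 was the member that passed both as lower in P30 mutants and as higher with age. Both comparisons use the same P30 control arrays, so these calls are not independent. Sybu, lower in mutants at both ages, had no promoter entry. Cplx1 had the smallest p with age and Unc13b the largest fall. Each window runs 250 bases before to 50 after the RefSeq transcription start, on the GRCm38.p6 build, 5′ to 3′ along the gene. Capitals mark GC boxes (GGGCGG or its reverse complement CCGCCC) and CCAAT boxes (CCAAT or its reverse complement ATTGG).
Syt6, chr3:103574995-103575294, plus strand, the first of 3 listed starts: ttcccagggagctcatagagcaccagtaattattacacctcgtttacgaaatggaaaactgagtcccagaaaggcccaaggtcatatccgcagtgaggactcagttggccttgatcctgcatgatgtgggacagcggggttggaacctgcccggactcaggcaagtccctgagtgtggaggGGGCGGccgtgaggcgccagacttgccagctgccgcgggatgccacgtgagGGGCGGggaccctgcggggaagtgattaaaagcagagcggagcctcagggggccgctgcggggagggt
Cplx1, chr5:108549978-108550277, minus strand: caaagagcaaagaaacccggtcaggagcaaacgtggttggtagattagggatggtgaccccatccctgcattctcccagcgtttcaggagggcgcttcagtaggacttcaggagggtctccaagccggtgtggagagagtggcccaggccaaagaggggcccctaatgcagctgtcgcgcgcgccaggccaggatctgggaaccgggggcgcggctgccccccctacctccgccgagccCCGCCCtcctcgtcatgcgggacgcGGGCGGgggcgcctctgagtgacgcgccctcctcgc
Unc13b, chr4:43058703-43059002, plus strand: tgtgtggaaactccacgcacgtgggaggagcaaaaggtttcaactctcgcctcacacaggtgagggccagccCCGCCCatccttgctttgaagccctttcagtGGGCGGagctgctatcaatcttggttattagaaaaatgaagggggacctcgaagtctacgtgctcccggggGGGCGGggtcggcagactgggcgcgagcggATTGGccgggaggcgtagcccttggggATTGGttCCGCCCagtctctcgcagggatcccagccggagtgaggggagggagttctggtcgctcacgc
The Syt6 and Cplx1 windows hold 2 GC boxes each and no CCAAT box, and that of Unc13b holds 4 GC boxes and 2 CCAAT boxes. A GC box was found in 39 of 52 members' windows (75%), against 35.9% of 27025 windows of all listed genes and 62.9% of 8415 windows of genes detected on these arrays. CCAAT was found in 14 of the 52 (26.9%), against 38.8% of the windows of detected genes. The TATA box TATAAA was in 4 (7.69%), against 8.05%, the cyclic AMP response element TGACGTCA in 1 (1.92%), against 3.14%, and the AP-1 letters TGANTCA in 2 (3.85%), against 5.15%. The search covered both strands, and a match is a description of letters, not a binding site.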

How the data were processed

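Bulb RNA was amplified into biotin-marked cRNA for Illumina bead arrays. The deposited raw table, per the file headers, holds average signal intensities of 25697 probes on 32 arrays, with detection p-values. GenomeStudio was used, per the submitters' processing notes, with no version stated there. The authors' deposited normalized intensity table served as an alternative, with values under 16 set to 16.

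The raw intensities were corrected and quantile normalized with neqc in limma 3.58.1 (R 4.3.3, statmod 1.5.0; offset 16), by age for the mutant comparisons and over all arrays otherwise. Probes detected (p under 0.05) on at least 4 arrays of a fit entered, and the probe with the highest mean represented a gene, which can differ between fits. Of the probes, 23978 carried 1 gene symbol, 0 several and 1719 none. Groups were compared with lmFit and eBayes, two-sided, Benjamini-Hochberg over all genes. The fits were tested on simulated data.

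Any member could be named. The rule required those past the threshold, the 3 next by p in each mutant comparison, and the largest rises and falls with age; others named were chosen after their values were seen. Members and lists were chosen with earlier results of these data known. At E18.5, mutants and controls of the same replicate number deviated together (r of 0.118 to 0.355 in 8 of 8 pairs, across genes). Each such pair also shared a chip, and the values were not centred by chip. The array identifiers of a pair differ by neighbouring letters, so the number cannot be told apart from the place on the chip. Only 3 of 8 mutants and 2 of 8 controls correlated best with their own number. The labels do not say what the number marks. Whether replicates came from separate animals is not stated, and p-values cover only the spread between arrays, which may be technical. The number of arrays limits precision. Alternatives covered scaling, probe filter, chip, replicate block and left-out arrays.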

Additional observations from a re-analysis of the deposited data

Results flagged for a closer look

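In the P30 mutants, Syt6 stood at 6.88 on replicate 6, apart from the nearest other array at 5.77, and Rab32 stood at 7.18 on replicate 4, apart from the nearest at 8.00. In both, the gap to the nearest value, divided by the range of the 8 arrays, exceeded the critical ratio of 0.526. Of 18 groups of values tested in this way, 2 were marked, and chance marks about 1 in 20.

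Syt6 was also marked because its mutant effect differed between P30 and E18.5 by -1.36 in the fit over all arrays. In that difference, age cannot be told apart from mutant design or chip. The P30 effect rests on a probe near background in the mutants.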

How the results depend on the processing

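Sybu kept its direction and passed at E18.5 and at P30 under every alternative run except the second chip alone, where 0 members passed at E18.5 and 1 (Sv2b, higher) at P30, with adjusted p of 0.416 and 0.081 for Sybu; Syt6 at P30 did likewise (0.225). Testing every probe on its own gave 2 member probes at E18.5, both of Sybu. At P30, 4 members passed under median scaling, 5 with chip as a block and 4 with the replicate block (beside 311, 576 and 539 of 9928 genes, against 430). Sv2b joined Sybu and Syt6 in each of these, and Syt9 only with chip as a block or with the replicate block. For the P30 pairs the labels give a shared number, a shared chip and neighbouring letters in the array identifiers (r between -0.07 and 0.417, over 0.1 in 6 of 8 pairs). The replicate block changed no E18.5 call. The difference between the ages gave 0 members under median scaling, median scaling over the tested probes, the authors' table, each age normalized on its own and the 4 arrays farthest on the first principal component left out, 2 with chip as a block and 3 with the replicate block (beside 364 and 380 of 11312 genes, against 209). Without those 4 arrays, the Sybu difference reversed to 0.0935. With no fold condition, 49 of 67 members passed in the age comparison, beside 6992 of 11312 genes. The 2 such arrays at P30 were mutant replicates 1 and 2, and at E18.5 control replicates 6 and 8; these alternatives, and median scaling over the tested probes, were added after seeing the data. Leaving out 1 array at a time gave 1 to 1 members at E18.5, 2 to 3 at P30, 1 to 2 for the difference and 17 to 21 for age. The difference reached 2 without P30 control replicate 4 or without P30 mutant replicate 4 or 6. Signals near background limit Syt6, Rab37, Rab3il1 and Vamp5.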
